A study of Arabidopsis thaliana with 8 samples.

Results

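The subject of this report is the interaction of genotype and zinc in dark-grown seedlings of Arabidopsis thaliana, the difference between the zinc response of the mutant dez and that of wild type. It was taken over all 8 arrays as the zinc change in dez (dez high-Zn minus dez control) less the zinc change in wild type (Wild-type high-Zn minus Wild-type control). Of 22746 probe sets outside the array's controls, the upper 60% by mean signal over the 8 arrays were tested, which was 13648 probe sets. A positive interaction means that a transcript went up more, or down less, with zinc in dez than in wild type.

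The 4 groups were dez on high-Zn medium, dez on control medium, wild type on high-Zn medium and wild type on control medium, with 2 biological replicates in each. The high-Zn medium held 100 µM zinc and the control medium 1 µM, both as modified Hoagland medium. Each replicate was a pool of about 45 whole seedlings that had grown for 7 days in darkness and were collected under dim green light. RNA was read on Affymetrix ATH1 arrays, on which short probes form a probe set for a transcript, and the deposited value is a linear intensity in arbitrary units.

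Seedlings kept in darkness follow a programme called etiolation: the hypocotyl elongates, the apical hook stays closed and the plastids stay without chlorophyll. Most photosynthesis genes are held below their level in light until light is seen. The name dez stands for de-etiolated by zinc. From earlier work the mutated gene is TRICHOME BIREFRINGENCE (TBR), a gene of the family that acetylates polysaccharides of the cell wall. Zinc is an essential metal that is toxic in excess, and a surplus of it interferes with the uptake and use of iron. A test of the interaction asks whether both genotypes answered the metal alike.

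PORB, the protochlorophyllide oxidoreductase that is abundant in etiolated plants, had 2164 and 1874 intensity units in Wild-type control, in the upper range of the arrays. Photosynthesis genes were not near the floor there, with group means of 2574 for PSAE-1 and 2162 for LHCB4.1, and no light-grown array was at hand for comparison. TBR had 150.2 and 138.2 intensity units in dez high-Zn, 112.4 and 131.4 in dez control, 145 and 128.1 in Wild-type high-Zn and 153.6 and 168.5 in Wild-type control. Its interaction of 0.43 ± 0.17 did not pass (SE, limma adjusted p = 0.102), and without knowledge of the lesion the probe set is no check of the genotype. Array medians lay between 34.75 and 37.24, and replicates of a group correlated at 0.983 to 0.993 over the tested probe sets. The number of arrays limits the precision, and the median standard error of an interaction was 0.17 on the log2 scale. Since whole seedlings were pooled, fewer cells of a type and less RNA per cell cannot be told apart in any value here.

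The interaction passed limma's test, at a Benjamini-Hochberg adjusted p under 0.05, for 2653 probe sets, which is 19.4% of those tested. Of these 1210 were positive (8.87% of those tested) and 1443 negative (10.6%), and 941 reached at least 1 in size on the log2 scale. Counts of list members given below are to be read beside these shares. A list counts only members with a named and tested probe set. These were 7 of 45 entries for photosystem and antenna, 8 of 36 for chlorophyll and tetrapyrrole synthesis and 3 of 17 for the Calvin cycle. Lists also share members, among them WRKY53, GSTU25, GSTU20, BGLU42 and IAA29, so that a call can be counted under different lists. The last probe set inside the threshold was AT4G16330, with an interaction of 0.46 and an adjusted p of 0.04995, and the first outside had -0.70 and 0.05001. The dimmest probe set kept had a mean log2(intensity + 16) of 5.2518 and the brightest left out one of 5.2515. Fewer calls, 545, were left when each array was scaled to its spiked poly-A controls, and that scaling moved the median interaction of all probe sets to 0.30, against 0.02 as deposited. Under it 83.5% of the calls were positive, against 45.6% as deposited, so every direction here is relative to the other transcripts on the arrays. The mean log2 intensity of the spiked controls was 6.77 in dez high-Zn, 7.19 in dez control, 7.59 in Wild-type high-Zn and 7.67 in Wild-type control, and their part in the calls was not tested beyond this scaling. Without dez control replicate 2, 1621 probe sets passed, with 729 positive and 892 negative. Of the 98 genes named here with a passing interaction none turned its direction under any alternative tried, while 20 lost the call without at least 1 single array (AT4G16330 without any of the 8) and 52 lost it under poly-A spike scaling.

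Each of the 2653 was then sorted by which of its zinc responses also passed limma's test. In 2431 zinc changed the level in dez and the wild-type response did not pass, and this pattern is called dez only below. In 29 the response passed in wild type and not in dez. In 28 it passed in both genotypes with opposite signs, and in 16 it passed in both with the same sign and unlike size. In the remaining 149 neither response passed, though their difference did. Over all tested probe sets zinc changed 34% in dez and 0.703% in wild type, so that a passing wild-type response was rare. A wild-type response that did not pass is not shown to be absent, and its size is given beside some of the genes only. Among dez only genes named below without it, zinc changed AT5G48490 by 0.87, CaS by 0.64 and petL by 0.59 in wild type. AT5G39580 changed by 0.57, SBT1.3 by 0.54, PSAN and rbcL by 0.51 each and RCA by 0.45, also in wild type.

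**Figure D1:**
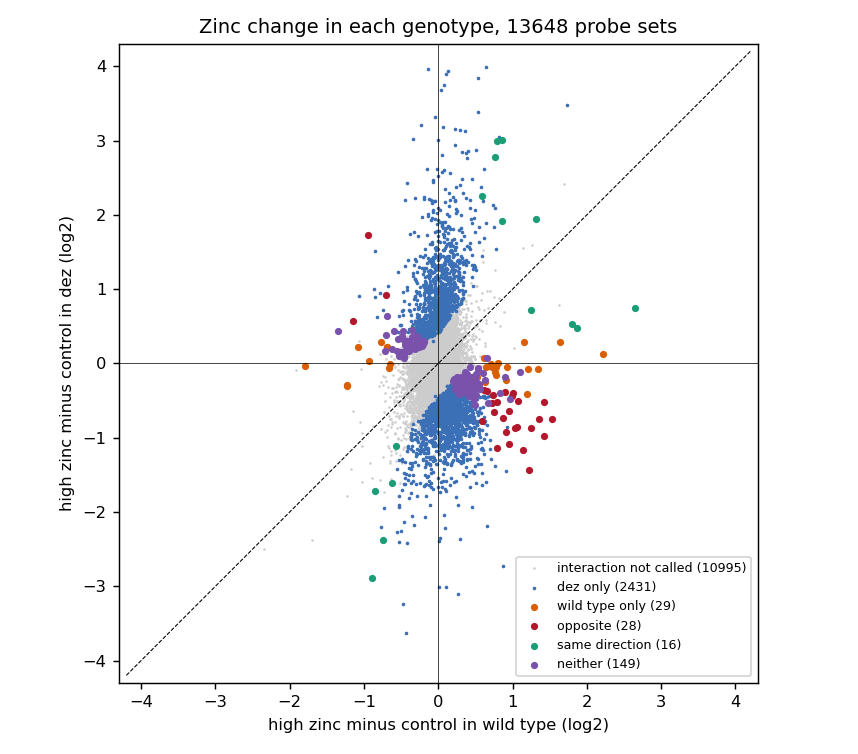
Zinc change in dez (vertical axis, log2) against zinc change in wild type (horizontal axis, log2) for the 13648 tested probe sets, coloured by pattern, with those whose interaction did not pass in grey. The dashed line marks equal change in both genotypes. The 2431 dez only probe sets spread up and down along the vertical axis, while 25 of the 28 opposite ones lie at the lower right, raised in wild type and lowered in dez.

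The patterns differed in where the 4 groups stood. The sort used these same arrays, so that the medians here describe the members and are not a separate result. In the 1145 positive dez only probe sets the median zinc change was 0.86 in dez and 0.01 in wild type, and dez differed from wild type by a median of 0.88 on high zinc and 0.00 on control medium. By these medians the dez high-Zn arrays stood above the other 3 groups, which lay close together. In the 1286 negative ones the median change was -0.75 in dez and 0.13 in wild type. The wild-type change was above 0 in 960 of them (74.7%), against 62.3% of all tested probe sets with a negative interaction. A rise in wild type enters the interaction with a negative sign, so that this share is a description of the members and not a separate result. Median intensities of these members were 97.96 for the positive and 126.6 for the negative ones, beside 85.74 for all tested probe sets.

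**Figure D2:**
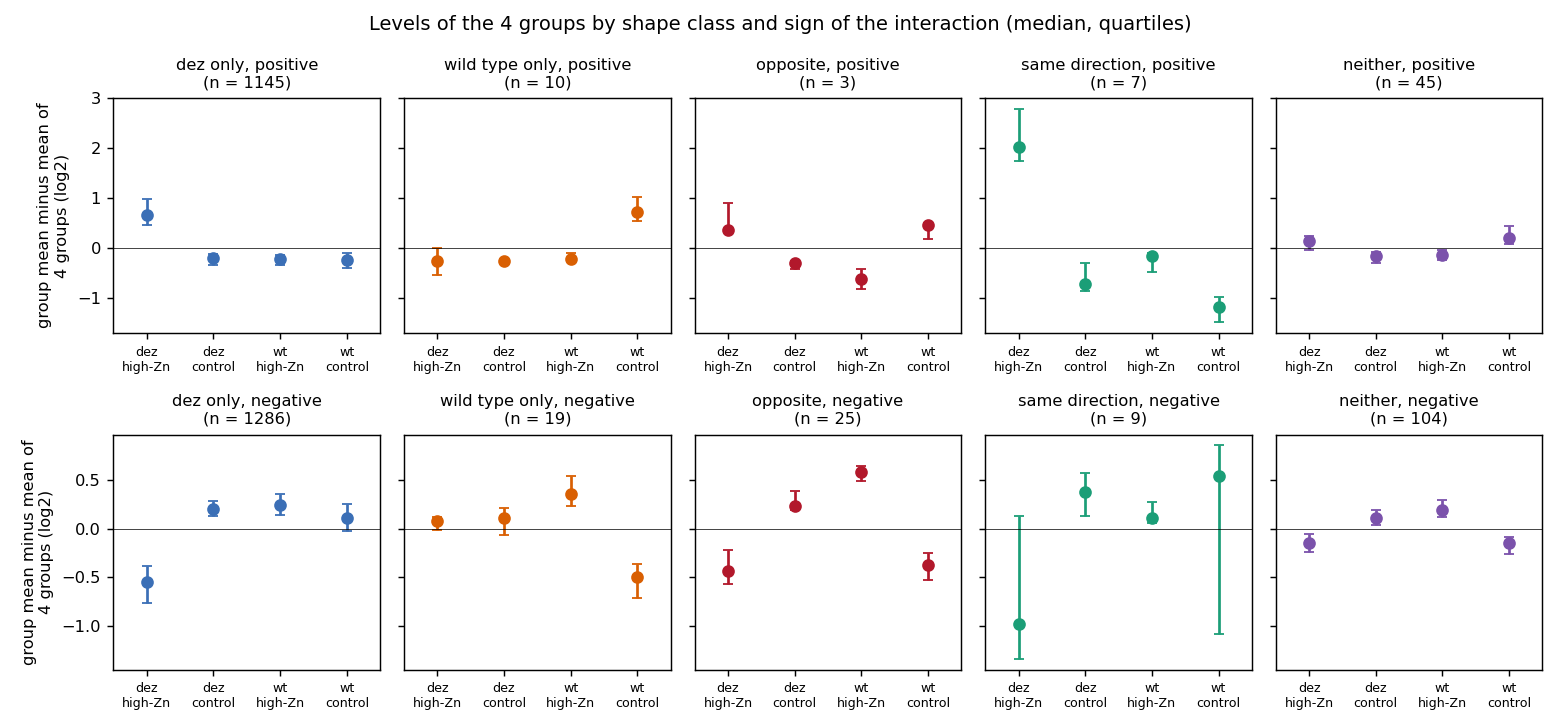
Level of each group (dez high-Zn, dez control, Wild-type high-Zn and Wild-type control, the last 2 written wt) less the mean of the 4 groups, on the log2 scale, for each pattern and sign of the interaction. Points are medians over probe sets and bars span the quartiles, and each row has its own vertical scale. The medians of dez high-Zn are 0.65 for positive and -0.55 for negative dez only probe sets, and the Wild-type control group is the one that stands apart in the wild type only pattern, at 0.72 for positive and -0.50 for negative ones.

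Transcripts that zinc raised in dez and left without a passing change in wild type included some of the steepest interactions. AT4G33720 had 675 and 571 in dez high-Zn, 24.9 and 24.8 in dez control, 11 and 12.2 in Wild-type high-Zn and 15.7 and 13.2 in Wild-type control. It stood far above the rest on both dez high-Zn arrays, and the interaction was 4.101 ± 0.16 (SE, limma adjusted p = 1.36e-06). AT4G12500 and AT5G55050 had interactions of 3.79 and 3.68, with 378 and 395 and 447 and 508 intensity units in dez high-Zn, against between 4.25 and 12.4 and between 18.2 and 26.3 on the other 6 arrays. AT4G22470 showed the same shape, at 760.0 and 869 in dez high-Zn and between 32.5 and 55.2 elsewhere. The annotation used gives no name to these 4 genes.

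Peroxidases of class III use hydrogen peroxide to cross-link or loosen wall polymers. PRX52, a member that acts in lignin formation, had 149 and 294 in dez high-Zn, 7.23 and 6.12 in dez control, 7.73 and 6.65 in Wild-type high-Zn and 6.81 and 9.14 in Wild-type control. The dez high-Zn arrays differed from each other by nearly their lower value, yet both lay far above the other 6, and the interaction was 3.36 ± 0.31 (SE, limma adjusted p = 9.49e-05). Prx37 had 617 and 521 in dez high-Zn and between 83.2 and 158 on the rest, with an interaction of 1.47 ± 0.23 (SE, limma adjusted p = 0.00155). Of the 5 tested genes named as class III peroxidases these passed with a positive sign and 3 did not pass, beside 8.87% positive calls over all tested probe sets. Outside that list, AT5G39580 had an interaction of 1.802, with 749 and 812 in dez high-Zn and 145 and 129.5 in dez control, against 194 and 110.0 in Wild-type high-Zn and 106 and 81.8 in Wild-type control.

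The named positive members included genes of defence and stress, of which 2 of 3 tested on the defence list and both on the oxidative stress list passed. Over all tested probe sets 8.87% were positive. WRKY53 counts on the defence list and among the WRKY factors. The oxidative stress pair was STZ and GSTU25, and GSTU25 counts again in the tau class. PDF1.4, of the plant defensin family, had 225 and 271 in dez high-Zn, 13.4 and 14.8 in dez control, 21.5 and 30.4 in Wild-type high-Zn and 17.2 and 16.1 in Wild-type control. Its interaction was 2.77 ± 0.18 (SE, limma adjusted p = 1.69e-05), and the wild-type arrays on high zinc were somewhat above those on control medium without passing, with a change of 0.35. WRKY53, a transcription factor of senescence and defence, had 127 and 115 in dez high-Zn, 20 and 19 in dez control, 19.5 and 12.4 in Wild-type high-Zn and 16.2 and 17 in Wild-type control. The other 6 arrays lay between 12.4 and 20, and the interaction was 1.99 ± 0.16 (SE, limma adjusted p = 5.36e-05).

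Of 6 tested WRKY factors, a family of plant transcription factors that bind the W box, 4 had a positive interaction, none had a negative one and 2 did not pass. WRKY47, WRKY6 and WRKY22 had interactions of 1.403, 1.32 and 1.01 beside wild-type changes of -0.01, -0.04 and -0.02. The median of the 6 was 1.17, against 0.02 for all tested probe sets, and these 4 calls also passed under poly-A spike scaling. STZ, a zinc finger repressor of the abiotic stress response also called ZAT10, had 117 and 108 in dez high-Zn and between 25.9 and 40.1 elsewhere, with an interaction of 1.45 ± 0.15 (SE, limma adjusted p = 0.00017). CML41, a calmodulin-like protein, had 61.4 and 67.5 in dez high-Zn, against between 11.5 and 19.7 on the rest, and an interaction of 1.57. Both arrays of dez high-Zn lay above all others for each of these 5 genes. Both lay beyond both dez control arrays in all 1145 positive dez only probe sets and in 9773 of all 13648 tested, so that this describes the genes only.

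Enzymes of redox and detoxification followed. NDB2, an alternative NAD(P)H dehydrogenase of the mitochondrial membrane, had 493 and 469.9 in dez high-Zn and between 154 and 183 elsewhere, with an interaction of 1.35 ± 0.14 (SE, limma adjusted p = 0.000208). AER, an alkenal reductase that removes reactive carbonyls, had an interaction of 1.62 ± 0.19 (SE, limma adjusted p = 0.000349). Tau class glutathione transferases attach glutathione to electrophiles, and of 7 tested 2 were positive, 1 was negative and 4 did not pass. Over all tested probe sets 8.87% were positive and 10.6% negative, and under median centring 3 of the 7 were positive. GSTU25 had 1040.0 and 1004 in dez high-Zn, 392 and 384 in dez control, 501 and 335 in Wild-type high-Zn and 322 and 340.1 in Wild-type control, with an interaction of 1.07. GSTU18 was the negative member, with 23.9 and 39.8 in dez high-Zn and between 60.2 and 89.7 on the other arrays and an interaction of -1.25 ± 0.24 (SE, limma adjusted p = 0.0052). No tau class call held under poly-A spike scaling.

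PPDK, pyruvate orthophosphate dikinase, which makes phosphoenolpyruvate from pyruvate, had 341 and 436 in dez high-Zn, 63 and 55.2 in dez control, 145 and 114 in Wild-type high-Zn and 162 and 194 in Wild-type control. It started lower in dez than in wild type, with a difference of -1.37 on control medium, and ended higher on high zinc, by 1.48. Its interaction was 2.84 ± 0.22 (SE, limma adjusted p = 3.23e-05). PPDK was the 1 positive member among 12 tested genes of carbon starvation and branched-chain amino acid breakdown, of which 11 did not pass, and it is not itself an enzyme of that breakdown. Over all tested probe sets 8.87% were positive, so that this count is no result about the list. Under quantile normalization or median centring 2 of the 12 were positive. IVD and MCCA, enzymes of leucine breakdown, had interactions of 0.75 and 0.49 with adjusted p of 0.058 and 0.351. UGT87A2, a glycosyltransferase, and APL3, a large subunit of ADP-glucose pyrophosphorylase of starch synthesis, had interactions of 2.18 and 1.66. ECS1 had 135 and 122 in dez high-Zn, 21.6 and 11.6 in dez control, 65.8 and 165 in Wild-type high-Zn and 201 and 61 in Wild-type control. Its wild-type replicates differed widely, and the interaction of 2.25 ± 0.62 (SE, limma adjusted p = 0.0285) was lost without either dez high-Zn array, dez control replicate 2, Wild-type high-Zn replicate 1 or Wild-type control replicate 1 (interactions 1.502 to 2.31, limma adjusted p between 0.0553 and 0.106).

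Beta-glucosidases release sugar from stored glycosides, and of 8 tested 4 were positive and 4 did not pass, with a median of 0.72. The share of positive calls over all tested probe sets was 8.87%. BGLU25 had 370.4 and 312 in dez high-Zn and between 75.7 and 125 elsewhere, with an interaction of 1.28 ± 0.19 (SE, limma adjusted p = 0.00122). BGLU42, which takes part in the release of iron-mobilising coumarins, had 173 and 193 in dez high-Zn and between 55.1 and 83.1 elsewhere, with an interaction of 0.89 ± 0.19 (SE, limma adjusted p = 0.00849). PYE, a transcription factor of the iron deficiency response, had 60.7 and 61.2 in dez high-Zn and between 24.3 and 32.2 elsewhere, with an interaction of 0.73 ± 0.15 (SE, limma adjusted p = 0.00673). Of the 3 tested iron deficiency genes these passed, and 1, AT3G13610, did not, with an interaction of 0.53 (limma adjusted p = 0.114). Zinc changed AT3G13610 by 1.04 in dez and by 0.51 in wild type, where the change did not pass. It stood higher in dez than in wild type on control medium already, by 1.23. BGLU15 and BGLU40 had interactions of 0.705 and 0.73. The call of BGLU15 was lost without dez control replicate 2 (interaction 0.66, limma adjusted p = 0.0653). That of BGLU40 was lost without dez high-Zn replicate 2, either dez control array, Wild-type high-Zn replicate 2 or either Wild-type control array (interactions 0.49 to 0.76, limma adjusted p between 0.0535 and 0.09). Under poly-A spike scaling 1 of the 8 beta-glucosidases passed and none of the iron deficiency genes.

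The glucosinolate genes were 2, and both had positive interactions. BCAT4, an aminotransferase at the entry to methionine-derived glucosinolates, had 1146 and 1165 in dez high-Zn, 121 and 142 in dez control, 29.9 and 29 in Wild-type high-Zn and 12.4 and 8.53 in Wild-type control. All 4 groups were apart, with dez above wild type on either medium and high zinc above control in either genotype. It therefore belonged to the same direction pattern, with zinc changes of 2.995 in dez and 0.79 in wild type and an interaction of 2.21 ± 0.17 (SE, limma adjusted p = 3.17e-05). GSTU20, a glutathione transferase of that pathway, had 639 and 572 in dez high-Zn, 217 and 235 in dez control, 111 and 109 in Wild-type high-Zn and 103 and 68.7 in Wild-type control, and an interaction of 1.03 ± 0.21 (SE, limma adjusted p = 0.00738). Under poly-A spike scaling the call of BCAT4 held and that of GSTU20 was lost, at 1.388.

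Photosynthesis genes moved in the other direction. PSAN, a subunit of photosystem I on the lumen side, had 294 and 264 in dez high-Zn, 751 and 1039.9 in dez control, 1016 and 1337 in Wild-type high-Zn and 667 and 992 in Wild-type control. Both dez high-Zn arrays lay far below all others, the Wild-type high-Zn arrays were above the Wild-type control arrays, and the interaction was -2.12 ± 0.29 (SE, limma adjusted p = 0.000796). Of 7 tested nuclear genes of the photosystems and antenna, 6 had a negative interaction and 1, LHCB4.3, did not pass, with a median interaction of -1.05. The share of negative calls over all tested probe sets was 10.6%. Median zinc changes of the 7 were -0.93 in dez and 0.25 in wild type.

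LHCB4.1 and LHCB4.2, inner antenna proteins of photosystem II, had 1104 and 949 and 673 and 582 in dez high-Zn, against between 1871 and 2743 and between 1319.6 and 2265 on the other arrays. Their interactions were -1.23 and -1.37. PSBW and PSBY, small subunits of photosystem II, had interactions of -1.05 and -0.896, and PSAE-1 of photosystem I had one of -0.97. These were some of the brightest members, with PSAE-1 at 1589.9 and 1453 in dez high-Zn and between 2356 and 3105 elsewhere. All 3 tested Calvin cycle genes had negative interactions, beside 10.6% over all tested probe sets. The values were -1.38 for PRK, phosphoribulokinase, -1.03 for SBPASE, sedoheptulose bisphosphatase, and -0.95 for RCA, the activase of Rubisco. Under poly-A spike scaling 1 of the 7 photosystem and antenna genes passed, with a median of -0.73, and none of the Calvin cycle genes, with a median of -0.71.

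Chlorophyll is built from glutamate through porphyrins, and the tested enzymes cover several steps of that path. CHLM, the methyltransferase of magnesium protoporphyrin, had 334 and 277 in dez high-Zn, 746 and 796 in dez control, 896 and 1036 in Wild-type high-Zn and 721 and 804 in Wild-type control. The dez high-Zn arrays were the lowest and the Wild-type high-Zn arrays the highest, and the interaction was -1.63 ± 0.17 (SE, limma adjusted p = 0.000207). PORB had 706 and 562 in dez high-Zn, 1741 and 1412 in dez control, 2167 and 1924 in Wild-type high-Zn and 2164 and 1874 in Wild-type control, with a wild-type change of 0.02 and an interaction of -1.31 ± 0.20 (SE, limma adjusted p = 0.00139). HEME1 and HEME2, uroporphyrinogen decarboxylases, had interactions of -1.298 and -1.37, and CHLI2, a subunit of magnesium chelatase, one of -1.24. HEMB1, a dehydratase of an early step, had an interaction of -0.72 although neither of its zinc responses passed.

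In all, 6 of 8 tested chlorophyll and tetrapyrrole genes had a negative interaction, none had a positive one and 2 did not pass. The share of negative calls over all tested probe sets was 10.6%. HEMA2, a glutamyl-tRNA reductase, did not pass at 0.60. The median of the 8 was -1.27, with median zinc changes of -0.83 in dez and 0.35 in wild type, and under poly-A spike scaling no member passed and the median was -0.98.

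Plastids carry their own genome, which encodes core subunits of the photosystems and of the plastid ribosome. Of 63 tested plastid-encoded genes 18 had a negative interaction, none had a positive one and 45 did not pass, beside 10.6% negative and 8.87% positive calls over all tested probe sets. The estimate was below 0 for 60 of the 63, with a median of -0.55, and for 6497 of all 13648 tested, with a median of 0.02. petL, of the cytochrome b6f complex, had 48.6 and 64.4 in dez high-Zn, 271 and 158 in dez control, 454 and 477 in Wild-type high-Zn and 493 and 184 in Wild-type control. The wild-type groups overlapped, both dez high-Zn arrays were below all others, and the interaction was -2.23 ± 0.51 (SE, limma adjusted p = 0.0115). The call was lost without dez high-Zn replicate 1 (interaction -2.07, limma adjusted p = 0.063).

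Of 15 photosystem II genes of the plastid 4 passed, among them psbT with an interaction of -1.39, and of 5 photosystem I genes psaJ alone, at -1.03. The call of psbT was lost without either dez high-Zn array or dez control replicate 2 (interactions -1.44 to -1.23, limma adjusted p between 0.0553 and 0.0702), and that of psaJ was lost without either dez high-Zn array or dez control replicate 2 (interactions -1.04 to -0.89, limma adjusted p between 0.0518 and 0.0616). For ribosomal proteins it was 7 of 14, and for the NDH complex, which returns electrons to the plastoquinone pool, 1 of 8. The last is near the 10.6% of negative calls over all tested probe sets. None of the 5 ATP synthase genes passed by limma's test, with a median of -0.29 and 0 under 0.05 without adjustment. None of the 3 RNA polymerase genes passed either, with a median of -0.78, but all 3 were under 0.05 without adjustment. Every passing probe set is also under 0.05 without adjustment, so that share over all tested probe sets is at least 19.4%. rbcL, the large subunit of Rubisco, had 146 and 95.4 in dez high-Zn and between 141 and 309 elsewhere. Its Wild-type control arrays, at 227 and 141, overlapped with those of dez high-Zn. The interaction was -1.31 ± 0.33 (SE, limma adjusted p = 0.0185), and the call was lost without dez high-Zn replicate 2, dez control replicate 1, Wild-type high-Zn replicate 2 or Wild-type control replicate 2 (interactions -1.24 to -0.99, limma adjusted p between 0.0535 and 0.0882). ATH1 labelling starts from poly-A tails, which plastid transcripts mostly lack, and under poly-A spike scaling 1 of the 63 passed with a median of -0.23.

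Other named dez only genes with a negative interaction were on none of the lists, and they form no tested group. CaS, a calcium-sensing protein of thylakoids, PSB27, an assembly factor of photosystem II, and NdhS, of the NDH complex, had interactions of -1.595, -1.55 and -1.47. CYTC6A, a cytochrome of the thylakoid lumen, had 24.6 and 29 in dez high-Zn, against between 109.6 and 138 on the other arrays, and an interaction of -1.504 ± 0.17 (SE, limma adjusted p = 0.000313). HPR, the peroxisomal hydroxypyruvate reductase of photorespiration, had an interaction of -1.55, and MSRB6, a methionine sulfoxide reductase, one of -1.78. STOMAGEN, a secreted peptide that promotes stomata and is made in mesophyll, had 20.7 and 14.9 in dez high-Zn and between 77.9 and 120.5 elsewhere, with an interaction of -1.56 ± 0.21 (SE, limma adjusted p = 0.000657). The calls of CaS, PSB27, NdhS, CYTC6A and HPR were lost under poly-A spike scaling and those of MSRB6 and STOMAGEN held. The 3 guard cell lineage markers with a probe set, FMA, MUTE and SPCH, were all too dim to be tested. Their summed intensity was 38.7 and 38.3 in dez high-Zn, 50.1 and 51.3 in dez control, 47.4 and 41.9 in Wild-type high-Zn and 45.0 and 45.2 in Wild-type control, and their part in the result was not tested.

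AT5G48490 and AT1G09750 had the most negative interactions of the named probe sets, -3.59 ± 0.38 (SE, limma adjusted p = 0.000203) and -3.38 ± 0.17 (SE, limma adjusted p = 3.50e-06). AT1G09750 had 65.3 and 64 in dez high-Zn, 686 and 673 in dez control, 586 and 712 in Wild-type high-Zn and 565 and 504 in Wild-type control, and the 6 other arrays lay within a narrow band above dez high-Zn. AT5G48490 had 52.8 and 69.2 in dez high-Zn and 388 and 620.2 in dez control, against 801 and 1304 in Wild-type high-Zn and 451 and 677 in Wild-type control. The annotation used gives neither a name.

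Wall genes split by sign. ATPMEPCRD, a pectin methylesterase, had 38.4 and 36.5 in dez high-Zn, 442 and 538 in dez control, 861 and 826 in Wild-type high-Zn and 1117 and 1249 in Wild-type control. The dez high-Zn arrays were lowest, followed by dez control, Wild-type high-Zn and Wild-type control with no overlap, and the interaction was -2.76 ± 0.17 (SE, limma adjusted p = 1.28e-05). ATPMEPCRB, another pectin methylesterase, had 1099.9 and 1167 in dez high-Zn, 232 and 238 in dez control, 183 and 187 in Wild-type high-Zn and 178 and 136 in Wild-type control, high on the dez high-Zn arrays alone. Its interaction was 1.97 ± 0.18 (SE, limma adjusted p = 8.58e-05), and both calls held under poly-A spike scaling. SBT1.3, a subtilase, had 164 and 139 in dez high-Zn, 435 and 350.1 in dez control, 278 and 262 in Wild-type high-Zn and 231 and 142 in Wild-type control, and an interaction of -1.82 ± 0.27 (SE, limma adjusted p = 0.00125). Of 7 tested genes of pectin and wall sensing 1 was positive, 2 were negative and 4 did not pass, and the median of -0.13 turned to 0.13 under poly-A spike scaling. The shares over all tested probe sets were 8.87% positive and 10.6% negative. The receptor kinases THE1 and FER had interactions of -0.13 and 0.25, with adjusted p of 0.653 and 0.286.

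Expansins loosen the wall and xyloglucan endotransglucosylases (XTH) cut and rejoin its xyloglucan. Of 18 tested members 5 were positive, 4 were negative and 9 did not pass, with a median of 0.35, beside 8.87% positive and 10.6% negative over all tested probe sets. EXLA1, an expansin-like protein, had 142 and 192 in dez high-Zn and between 48 and 77.7 elsewhere, with an interaction of 1.803 ± 0.20 (SE, limma adjusted p = 0.000289). XTH18 had 767 and 763 in dez high-Zn, 304 and 331 in dez control, 295 and 255 in Wild-type high-Zn and 384 and 432 in Wild-type control, and its wild-type arrays on high zinc lay below those on control medium without passing. Its interaction was 1.77 ± 0.16 (SE, limma adjusted p = 8.58e-05). EXGT-A3 had an interaction of 0.92, and the negative members were XTH16, EXPB1, EXPA8 and EXPB3, with interactions of -1.25, -1.27, -1.37 and -0.84. The call of EXPA8 was lost without dez high-Zn replicate 2, dez control replicate 2 or Wild-type control replicate 1 (interactions -1.26 to -1.103, limma adjusted p between 0.0527 and 0.0831), and that of EXPB3 was lost without dez high-Zn replicate 2 or dez control replicate 2 (interactions -0.74 to -0.71, limma adjusted p between 0.0561 and 0.0611). EXLB1, at 0.57, had the smallest positive interaction that passed on this list, lost without either dez high-Zn array, dez control replicate 1, either Wild-type high-Zn array or Wild-type control replicate 1 (interactions 0.44 to 0.58, limma adjusted p between 0.0623 and 0.178). Its call was also lost with the 3'-5' covariate and with no filter, at limma adjusted p of 0.0504 and 0.0508. Under poly-A spike scaling 3 of the 18 passed, all positive.

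TBR has many relatives, the TRICHOME BIREFRINGENCE-LIKE (TBL) proteins, several of which acetylate xylan, mannan or pectin. Of 13 tested members of the family 2 were positive, 3 were negative and 8 did not pass, with a median of 0.05, and none passed under poly-A spike scaling. Over all tested probe sets 8.87% were positive and 10.6% negative. TBL45 had 52.5 and 47.2 in dez high-Zn and between 109 and 157 elsewhere, with an interaction of -1.49 ± 0.19 (SE, limma adjusted p = 0.000564). TBL36, TBL25 and TBL39 had interactions of -1.18, -0.74 and 0.77, all dez only. The call of TBL25 was lost without dez high-Zn replicate 2 or dez control replicate 2 (interactions -0.703 to -0.62, limma adjusted p between 0.0573 and 0.0784).

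IAA29, a repressor of auxin signalling, had 27.3 and 18.3 in dez high-Zn, 151 and 158 in dez control, 108 and 91.7 in Wild-type high-Zn and 143 and 143 in Wild-type control. Zinc lowered it in dez below every other array, while the wild-type change of -0.46 did not pass, and the interaction was -1.68 ± 0.19 (SE, limma adjusted p = 0.000247). It was the 1 member that passed among 7 auxin response genes and among 4 genes of hook and elongation growth, whose medians were 0.04 and 0.10. Over all tested probe sets 19.4% passed, so that these counts are no result about the 2 lists. Under quantile normalization or with the 3'-5' covariate 2 of the 7 auxin response genes passed, both negative. Several lists held no call at all, by limma's test at the threshold. Few of their entries were tested: 11 of 40 for autophagy, 8 of 233 for cytochrome P450, 2 of 38 for light signalling and 3 of 34 for zinc transport. Most of each list was thus not tested. None of 11 autophagy genes passed, with interactions between -0.42 and 0.35, and 2 were under 0.05 without adjustment. None of 8 cytochrome P450 genes passed, of which 3 were under 0.05 without adjustment, nor did either light signalling gene, of which 0 were. Since every passing probe set is under 0.05 without adjustment too, that share over all tested probe sets is at least 19.4%. These unadjusted counts are no result about the lists. With median centring 1 of the 8 cytochrome P450 genes passed, with a positive sign. Among 3 zinc transport and sequestration genes, ZIP6, a metal transporter, bZIP19, a regulator of the zinc deficiency response, and MT1C, a metallothionein, had interactions of -0.33, 0.18 and 0.32, with adjusted p of 0.142, 0.518 and 0.372.

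**Figure D3:**
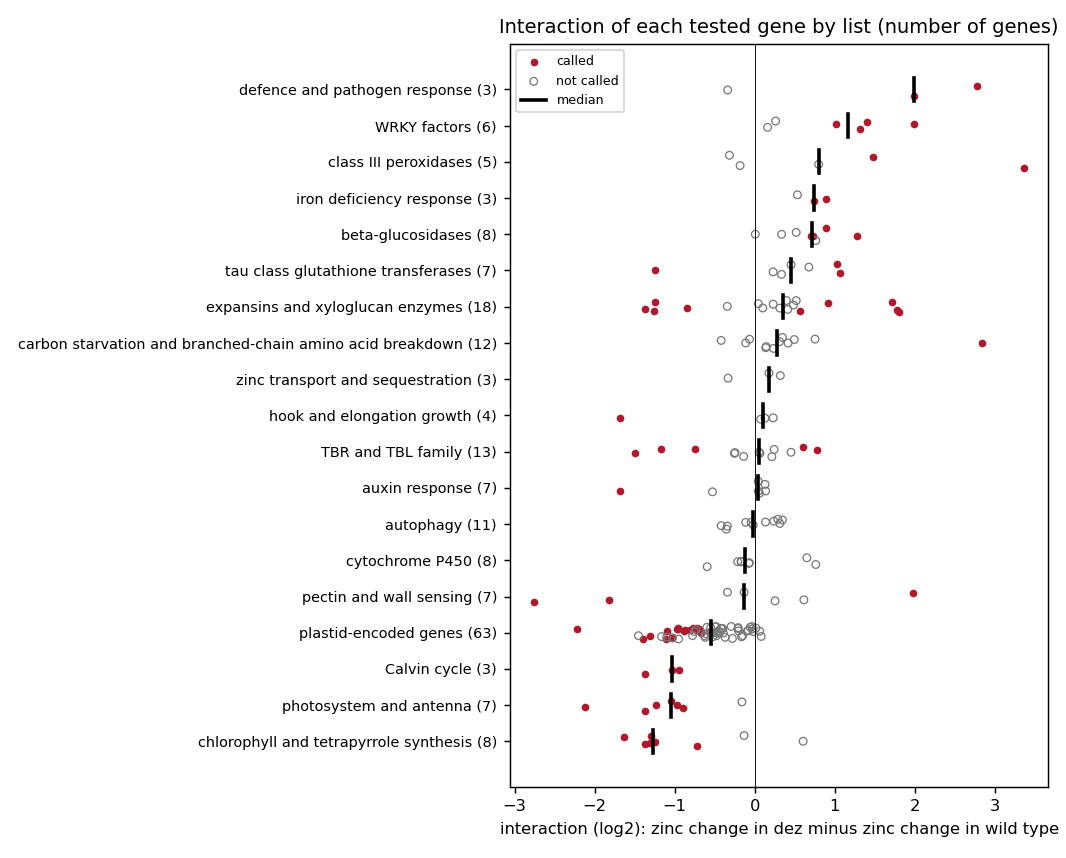
Interaction (log2, zinc change in dez minus zinc change in wild type) of each tested gene, by gene list with at least 3 tested genes, with the number of tested genes in brackets. Filled points passed limma's test, open points did not and bars are list medians. The 3 lists at the bottom, Calvin cycle, photosystem and antenna, and chlorophyll and tetrapyrrole synthesis, have medians of -1.03, -1.05 and -1.27, while the WRKY factors have one of 1.17.

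The wild type only pattern had 29 probe sets, of which 10 were positive and 19 negative, and 14 matched 1 gene. In the positive ones zinc lowered the level in wild type, by a median of -0.86, and dez stood below wild type on control medium by a median of -1.004 and on high zinc by -0.13. These medians come from the arrays used in the sort and describe the members. AT4G37220 had 7.90 and 9.99 in dez high-Zn, 11.6 and 7.74 in dez control, 59.1 and 61.8 in Wild-type high-Zn and 196 and 313 in Wild-type control. Both dez groups were at the bottom and overlapped, and the interaction was 1.75 ± 0.25 (SE, limma adjusted p = 0.000932). AT4G16146 had 20.7 and 30.1 in dez high-Zn, 23.6 and 15.2 in dez control, 18.1 and 15.8 in Wild-type high-Zn and 55.9 and 51.1 in Wild-type control, with an interaction of 1.301 ± 0.20 (SE, limma adjusted p = 0.00132). Its Wild-type control arrays were the only high ones. AT2G43535 had 375 and 579.6 in Wild-type control and between 151 and 228 on the other 6 arrays, with an interaction of 0.94 ± 0.28 (SE, limma adjusted p = 0.0369). The call was lost without either dez high-Zn array, dez control replicate 1, either Wild-type high-Zn array or Wild-type control replicate 2 (interactions 0.63 to 0.96, limma adjusted p between 0.0663 and 0.145). The call of AT2G43535 was also lost under poly-A spike scaling, at 1.217, and those of AT4G37220 and AT4G16146 held.

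TBL41, a relative of TBR, was the named cell wall gene of this pattern. It had 77.9 and 88.8 in dez high-Zn, 85.7 and 89.6 in dez control, 89.8 and 106 in Wild-type high-Zn and 162 and 166 in Wild-type control. The wild-type arrays on control medium were the highest and the other groups overlapped or adjoined, with zinc changes of -0.06 in dez and -0.67 in wild type. Its interaction was 0.603 ± 0.16 (SE, limma adjusted p = 0.0252). The call was lost under poly-A spike scaling, at an interaction of 0.87, and lost without dez high-Zn replicate 2, either dez control array, Wild-type high-Zn replicate 1 or Wild-type control replicate 2 (interactions 0.502 to 0.63, limma adjusted p between 0.0602 and 0.101).

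In the 19 negative probe sets zinc raised the level in wild type, by a median of 0.78, and dez control lay above Wild-type control in 18 of the 19. The Wild-type control arrays enter both the sort and this difference, so that the count describes the members and is not a separate result. AT2G18370 had 70.3 and 86.8 in dez high-Zn, 84.4 and 58.5 in dez control, 193 and 201 in Wild-type high-Zn and 30.3 and 29 in Wild-type control. The dez groups overlapped between the wild-type groups, and the interaction was -2.098 ± 0.21 (SE, limma adjusted p = 0.000134). AT5G37690 had 87.9 and 102 in dez high-Zn, 89 and 115 in dez control, 112 and 90.2 in Wild-type high-Zn and 29.8 and 29.9 in Wild-type control. Here the 6 arrays other than Wild-type control overlapped, and the interaction was -1.43 ± 0.20 (SE, limma adjusted p = 0.000818). AT5G09480 had an interaction of -1.61 with 32.3 and 48.5 in Wild-type control and between 75.2 and 124 elsewhere. Under poly-A spike scaling the call of AT2G18370 held and those of AT5G37690 and AT5G09480 were lost, at interactions of -1.056 and -1.279. Cpn60beta2, a subunit of the plastid chaperonin that folds Rubisco, had 480.1 and 488 in dez high-Zn, 487 and 489.5 in dez control, 568 and 469 in Wild-type high-Zn and 337 and 285 in Wild-type control. Its 4 dez arrays lay within a few units of each other, the Wild-type control arrays were lowest, and the interaction was -0.72 ± 0.17 (SE, limma adjusted p = 0.0153). The call was lost under poly-A spike scaling, at an interaction of -0.39, and lost without dez high-Zn replicate 1 or either dez control array (interactions -0.72 to -0.71, limma adjusted p between 0.0538 and 0.0596).

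Opposite responses passed in both genotypes in 28 probe sets, 3 positive and 25 negative, and 27 of the 28 had an interaction of at least 1 in size. In all 25 negative ones dez control lay above Wild-type control, and on high zinc dez lay below wild type in all 25. Arrays used in the sort also enter these differences, so that the counts describe the members and are not a separate result. The median zinc change was -0.73 in dez and 0.96 in wild type. AT4G38080 had 162 and 192 in dez high-Zn, 290.2 and 324 in dez control, 489 and 500.3 in Wild-type high-Zn and 166 and 203 in Wild-type control. The dez high-Zn and Wild-type control arrays overlapped at the bottom, dez control was intermediate and Wild-type high-Zn highest, with an interaction of -2.102 ± 0.18 (SE, limma adjusted p = 6.58e-05). AT1G74460 had 86.8 and 113 in dez high-Zn, 181 and 206 in dez control, 223 and 229 in Wild-type high-Zn and 80.9 and 91.3 in Wild-type control, in the same order and with an interaction of -2.11 ± 0.19 (SE, limma adjusted p = 7.46e-05). AT2G22510 had 32.4 and 36.3 in dez high-Zn, 69.9 and 81.2 in dez control, 124 and 129 in Wild-type high-Zn and 53.5 and 51.6 in Wild-type control, where dez high-Zn alone was lowest, and its interaction was -1.92 ± 0.15 (SE, limma adjusted p = 4.18e-05). AT2G23540 and AT2G03200 had interactions of -2.396 and -1.603. The annotation used names none of these 5.

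XTH19 was the 1 named positive gene with opposite responses, a xyloglucan endotransglucosylase. It had 397 and 419.5 in dez high-Zn, 260.2 and 277 in dez control, 214 and 192 in Wild-type high-Zn and 472 and 462 in Wild-type control. No groups overlapped: Wild-type control was highest, then dez high-Zn, dez control and Wild-type high-Zn. Zinc changed it by 0.58 in dez (limma adjusted p = 0.00188) and by -1.14 in wild type (adjusted p = 0.00103), and the interaction was 1.72 ± 0.15 (SE, limma adjusted p = 6.58e-05). XTH18 resembled it in sign, with 1.23 in dez and -0.54 in wild type, but its wild-type change had a limma adjusted p = 0.0703.

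**Figure D4:**
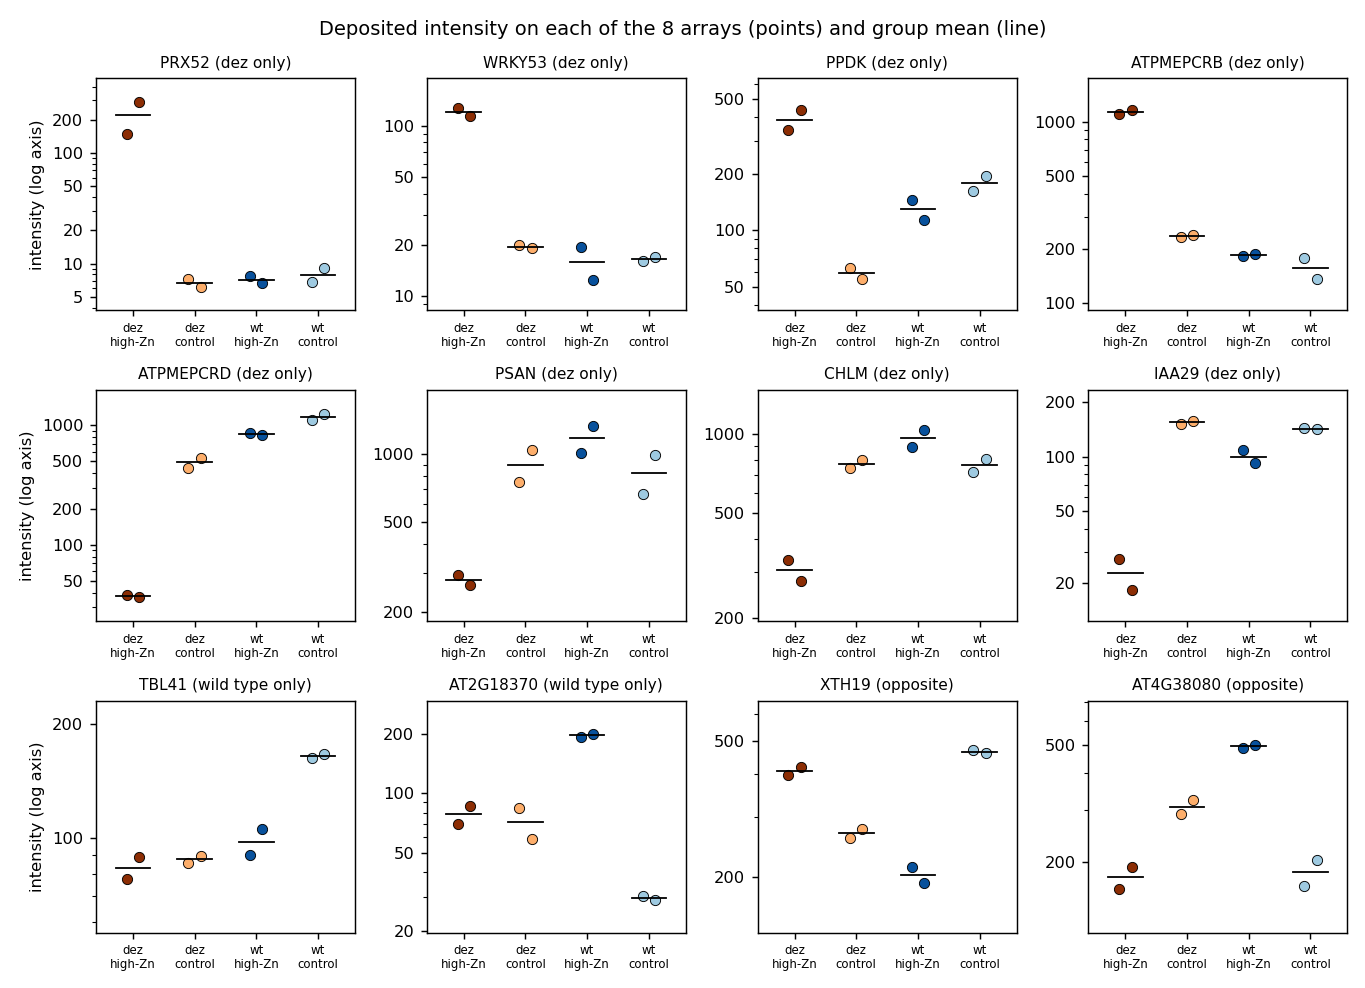
Deposited intensity (arbitrary units, log axis) of 12 genes on each array, for dez high-Zn, dez control, Wild-type high-Zn and Wild-type control, where wt is wild type. Points are arrays and lines are means of the 2 arrays of a group. The upper 8 genes are dez only, with dez high-Zn apart from the other 6 arrays, TBL41 and AT2G18370 are wild type only, and XTH19 and AT4G38080 have opposite responses.

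In 16 probe sets both responses passed in the same direction and differed in size, 7 with a positive interaction and 9 with a negative one. ARPN, plantacyanin, had 631 and 584 in dez high-Zn, 159 and 139 in dez control, 178 and 170.4 in Wild-type high-Zn and 99.9 and 78.4 in Wild-type control. Zinc changed it by 1.92 in dez and 0.86 in wild type, and the interaction was 1.06 ± 0.18 (SE, limma adjusted p = 0.00238). In AT3G58550 the wild-type response was the larger, with 95 and 72.5 in dez high-Zn, 47.7 and 39.3 in dez control, 243 and 258 in Wild-type high-Zn and 25.3 and 27.6 in Wild-type control. The interaction was -1.91 ± 0.19 (SE, limma adjusted p = 0.000124). FACT, which makes alkyl caffeates of suberin-associated root waxes, had 52.2 and 35.3 in dez high-Zn, 31.1 and 22.5 in dez control, 115 and 99.3 in Wild-type high-Zn and 15.8 and 20.1 in Wild-type control, with changes of 0.48 in dez and 1.86 in wild type and an interaction of -1.39 ± 0.22 (SE, limma adjusted p = 0.00167). It was the 1 tested suberin gene. AT4G32340 fell with zinc in both, by log2 values of -1.72 in dez and -0.85 in wild type, with an interaction of -0.87, and the call was lost without dez high-Zn replicate 1 or dez control replicate 1 (interactions -0.76 to -0.65, limma adjusted p between 0.0647 and 0.0713). The calls of ARPN, FACT and AT4G32340 were lost under poly-A spike scaling and that of AT3G58550 held.

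The 149 probe sets in which neither response passed had median changes of 0.28 in dez and -0.41 in wild type for the 45 positive ones, and of -0.26 in dez and 0.36 in wild type for the 104 negative ones. MGL, methionine gamma-lyase, had 296 and 331 in dez high-Zn, 263 and 231 in dez control, 284 and 303 in Wild-type high-Zn and 410.3 and 458 in Wild-type control and an interaction of 0.87 ± 0.16 (SE, limma adjusted p = 0.00444). Its Wild-type control arrays were highest, and dez high-Zn and Wild-type high-Zn overlapped. AT5G19890 had 335 and 444 in dez high-Zn, 276 and 283 in dez control, 98.4 and 53.2 in Wild-type high-Zn and 287 and 154 in Wild-type control, with an interaction of 1.79 ± 0.39 (SE, limma adjusted p = 0.00938), and its wild-type replicates spread widely. The call was lost without dez high-Zn replicate 2 (interaction 1.597, limma adjusted p = 0.057). IAGLU, which joins glucose to the auxin indole-3-acetic acid, had an interaction of 0.72. Negative members were AFR, an F-box protein of far-red light signalling, and UPP, a uracil phosphoribosyltransferase, with -0.84 and -0.71. The call of IAGLU was lost without either dez high-Zn array, dez control replicate 2, Wild-type high-Zn replicate 2 or Wild-type control replicate 1 (interactions 0.54 to 0.78, limma adjusted p between 0.0787 and 0.152). That of AFR was lost without either dez high-Zn array or either dez control array (interactions -0.87 to -0.82, limma adjusted p between 0.0541 and 0.072), and that of UPP was lost without dez high-Zn replicate 2, either dez control array, either Wild-type high-Zn array or Wild-type control replicate 2 (interactions -0.78 to -0.48, limma adjusted p between 0.0536 and 0.135). Poly-A spike scaling ended the calls of MGL, IAGLU, AFR and UPP, while that of AT5G19890 held.

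The size of the opposite pattern depended on how it was defined. Sorted by the group means alone, where a response belongs to 1 genotype when it is at least 3 times that of the other, 1849 probe sets were dez only, 45 wild type only, 705 opposite and 54 in the same direction. Of the 705 opposite by size, 541 were dez only and 132 neither by the test, and all 28 opposite by the test were opposite by size. PSBY, HEME1, HEME2, CHLI2, XTH16 and XTH18 were among these 541, with wild-type changes of 0.48, 0.36, 0.495, 0.46, 0.31 and -0.54, none of which passed. In dez PSBY changed by -0.42 (limma adjusted p = 0.0394), no more in size than in wild type (limma adjusted p = 0.194), each with an SE of 0.14. MSRB6, also among them, changed by -0.86 in dez and 0.92 in wild type. Adjustment was per contrast, so that a wild-type change had to be larger to pass. The counts of 2431 dez only and 29 wild type only depend in part on this.

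Markers of other cells and signs of RNA quality moved with the groups. The seed markers OLEO3, LEA4-5 and PAP85, of which OLEO3 alone was tested, summed to 47.4 and 54.1 in dez high-Zn, 106.5 and 75.6 in dez control, 115.1 and 87.0 in Wild-type high-Zn and 142.6 and 92.1 in Wild-type control. OLEO3, an oleosin of seed oil bodies, had an interaction of -0.95 that did not pass, and it passed at -0.97 under quantile normalization, -0.96 under median centring and -0.83 with the 3'-5' covariate, but not under poly-A spike scaling, at -0.77. The root hair expansins EXPA7 and EXPA18, both too dim to be tested, summed to 34.4 and 65.9 in dez high-Zn and to between 20.4 and 27.2 on the other arrays. The 25S ribosomal RNA control had a mean log2 intensity of 9.63 in dez high-Zn, 8.18 in dez control, 6.56 in Wild-type high-Zn and 5.98 in Wild-type control. The difference between 3' and 5' probe sets of actin and GAPDH was 1.202 in dez high-Zn, 1.46 in dez control, 1.59 in Wild-type high-Zn and 1.78 in Wild-type control on the log2 scale, and 2611 interactions passed with it as a covariate. The part of the seed, root hair and ribosomal RNA signals in the interaction was not tested.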

How the data were processed

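Per the labels' protocols, biotinylated cRNA of whole seedlings was put on ATH1 arrays. The authors deposited 1 linear intensity per probe set and array; MAS5 is named in the submitters' processing notes, without version or role, and no source used here states how the intensities were scaled, or gives a batch or scan.

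From the 22810 probe sets 64 controls were left out, log2(intensity + 16) was taken, which understates changes of dim genes, and the upper 60% by mean were kept. In R 4.3.3, limma 3.58.1 modelled the 4 groups by their means (lmFit, contrasts.fit, eBayes with a trend; 4 residual and 6.28 prior degrees of freedom), with two-sided tests and Benjamini-Hochberg adjustment per contrast at 0.05. Patterns were sorted by which zinc contrasts passed. The fit was tested on simulated data.

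Genes were named through the platform's probe annotation, updated by RefSeq of TAIR10.1. Among the others, 13513 had 1 gene, of which 13436 matched RefSeq; 503 had several and 8730 were not listed, and neither kind was named, so that 53.4% of tested probe sets carry a name. Named genes are those with the largest interactions per pattern and sign (10, or 5 for same direction and neither), up to 4 per list by adjusted p, and TBR. Those picked by size in dez only, wild type only and opposite had both high-zinc arrays beyond both control arrays of each genotype that responded. A list counts each gene by its brightest probe set. After values were seen, dez only genes with a symbol and the same separation of arrays were added (24 per sign), and further list members. The members, patterns and lists were chosen with earlier results of these data known. Lists of lipid transfer, berberine bridge and cytosolic ribosomal genes had no named probe set, nor had the endodermis and vascular markers. The alternatives were other normalizations, including scaling to the spiked poly-A controls before the logarithm, a 3'-5' covariate, other pseudocounts, filters, priors and thresholds, a replicate block and each array left out.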

Additional observations from a re-analysis of the deposited data

Results flagged for a closer look

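By limma's interaction test, the genotypes differed in their zinc response for 2653 probe sets and for 98 genes named in the report. By pattern, 2431 of the probe sets were dez only, 29 wild type only, 28 opposite, 16 in the same direction and 149 neither. The interactions of the named genes follow on the log2 scale.

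Zinc raised these in dez with no passing change in wild type: AT4G33720 (4.101), AT4G12500 (3.79), AT5G55050 (3.68), AT4G22470 (3.65), PRX52 (3.36), PPDK (2.84), PDF1.4 (2.77), UGT87A2 (2.18), WRKY53 (1.99), WRKY47 (1.403), WRKY6 (1.32) and WRKY22 (1.01). The same held for ATPMEPCRB (1.97), EXLA1 (1.803), XTH18 (1.77), STZ (1.45), CML41 (1.57), NDB2 (1.35), GSTU25 (1.07), GSTU20 (1.03), BGLU25 (1.28), BGLU42 (0.89), BGLU15 (0.705) and BGLU40 (0.73). So it did for PYE (0.73), Prx37 (1.47), AER (1.62), APL3 (1.66), ECS1 (2.25), AT5G39580 (1.802), TBL39 (0.77), EXGT-A3 (0.92) and AT4G08780 (0.88).

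Zinc lowered these in dez with no passing change in wild type: AT5G48490 (-3.59), AT1G09750 (-3.38), ATPMEPCRD (-2.76), petL (-2.23), PSAN (-2.12), SBT1.3 (-1.82), IAA29 (-1.68), CHLM (-1.63), CaS (-1.595), STOMAGEN (-1.56), PSB27 (-1.55) and HPR (-1.55). To these belonged CYTC6A (-1.504), NdhS (-1.47), PORB (-1.31), PRK (-1.38), LHCB4.1 (-1.23), LHCB4.2 (-1.37), PSBW (-1.05), PSAE-1 (-0.97), PSBY (-0.896), HEME1 (-1.298), HEME2 (-1.37) and CHLI2 (-1.24). A further group was RCA (-0.95), SBPASE (-1.03), rbcL (-1.31), psbT (-1.39), TBL45 (-1.49), TBL36 (-1.18), TBL25 (-0.74), XTH16 (-1.25), EXPB1 (-1.27), EXPA8 (-1.37), GSTU18 (-1.25) and MSRB6 (-1.78). The last of this pattern were psaJ (-1.03).

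Wild type only, with a positive sign, were AT4G37220 (1.75), TBL41 (0.603), AT4G16146 (1.301) and AT2G43535 (0.94). Wild type only, with a negative sign, were Cpn60beta2 (-0.72), AT2G18370 (-2.098), AT5G37690 (-1.43) and AT5G09480 (-1.61). Opposite, with a positive sign, was XTH19 (1.72). Opposite, with a negative sign, were AT2G23540 (-2.396), AT1G74460 (-2.11), AT4G38080 (-2.102), AT2G22510 (-1.92) and AT2G03200 (-1.603). In the same direction, and larger in dez, were BCAT4 (2.21) and ARPN (1.06). In the same direction with a negative interaction were AT3G58550 (-1.91), FACT (-1.39) and AT4G32340 (-0.87). With neither response passing, positive interactions were those of MGL (0.87), IAGLU (0.72), AT5G19890 (1.79), EXLB1 (0.57) and AT4G16330 (0.46). Negative ones were those of AFR (-0.84), EXPB3 (-0.84), HEMB1 (-0.72) and UPP (-0.71).

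Outside the tested probe sets, the 25S ribosomal RNA control had a mean log2 intensity of 9.634 in dez high-Zn, 8.176 in dez control, 6.556 in Wild-type high-Zn and 5.977 in Wild-type control. Its part in the interaction was not tested.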

How the results depend on the processing

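Median centring, quantile normalization, other pseudocounts (1 and 64), testing all probe sets and eBayes with no trend or a robust prior left the 2653 interactions at 2646 to 2741 and every pattern within 1.5 times its count, and a filter at the upper 40% left 2030, with 18 wild type only. Scaling to the poly-A spikes left 545, of which 455 were positive and 90 negative; 517 were dez only, 10 wild type only, 1 opposite, 3 in the same direction and 14 neither. None of the 28 opposite probe sets stayed opposite under it, and 536 of the 545 were among the 2653. The cause was not tested. With the 3'-5' difference as a covariate 2611 passed and 325 were neither. At a threshold of 0.01 the counts were 1412 (627 positive, 785 negative), 1328 dez only, 11 wild type only, 6 opposite, 2 in the same direction and 65 neither. At 0.10 they were 45 wild type only, 65 opposite and 34 in the same direction. Sorting by size gave 45, 705 and 54. Leaving out each array in turn gave 1621 to 2791 interactions (729 to 1359 positive, 892 to 1432 negative), 1463 to 2446 dez only, 13 to 26 wild type only, 11 to 33 opposite, 6 to 14 in the same direction and 74 to 292 neither. Counts moved by over 1.5 times without dez high-Zn replicate 1 (11 opposite, 10 in the same direction) or replicate 2 (14 wild type only, 17 opposite, 10 in the same direction), dez control replicate 1 (778 positive, 1617 dez only, 9 in the same direction) or replicate 2 (1621 in all, 729 positive, 892 negative, 1463 dez only, 18 opposite, 9 in the same direction), Wild-type high-Zn replicate 1 (292 neither, 10 in the same direction) or replicate 2 (17 wild type only, 16 opposite, 9 in the same direction, 74 neither), and Wild-type control replicate 2 (13 wild type only, 16 opposite, 6 in the same direction, 81 neither).

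The labels do not say whether replicate numbers pair the samples. Deviations of same-numbered arrays correlated at -0.36 to 0.37, which cannot settle it with 2 arrays a group. A fit with the replicate block gave 2464 interactions and moved no pattern by over 1.5 times. Of the 98 named genes 2 lost their call under the replicate block, EXLB1 (limma adjusted p = 0.057) and AT4G16330 (limma adjusted p = 0.0751). Other settings outside spike scaling, threshold and left-out arrays ended the calls of AT4G16330 (median centring, quantile normalization, a pseudocount of 1, the covariate and no filter), ECS1 (a pseudocount of 64 and the robust prior), EXPA8 and AT4G32340 (a pseudocount of 64), and EXLB1 and UPP (the covariate and no filter). With 2 arrays a group, 1 array limits many calls, and dim probe sets have no stated background.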

Other observations

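Neighbouring genes were compared by their order in the RefSeq annotation. Of 2128 pairs of adjacent genes that were both named and tested, 36 shared a pattern and sign, 21 as dez only positive and 15 as dez only negative. Prx37 and AT4G08780 were such a pair, with interactions of 1.47 and 0.88. Over all 13648 tested probe sets 1145 were dez only positive and 1286 dez only negative, so that some pairs would match by these shares alone. No test was made of these counts, and no excess of matching neighbours is shown.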
